A study of Mus musculus with 8 samples.

Results

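LIN28A and LIN28B, the 3 IGF2 mRNA-binding proteins IGF2BP1, IGF2BP2 and IGF2BP3, and the chromatin proteins HMGA1 and HMGA2 are encoded by 7 mouse genes that are often grouped as oncofetal genes, because embryos and many tumours express them and most adult tissues do so at a low level. They were taken by gene symbol from a table of 46635 loci, and all 7 were found once. The table holds 8 RNA-seq libraries from the wall of the small intestine of wild-type mice, 4 taken at postnatal day 14 (P14, replicates 1 to 4) and 4 from fetuses at E17.5 (days after the plug, replicates 1 to 4; 1 label shortens the stage to E17). No allele, transgene or drug separates the ages, and both were shaken with EDTA, which strips off the epithelium so that the mesenchyme remains. The labels do not say whether a replicate is 1 animal, a pool or a part of an animal, so the p-values below measure the spread between these libraries, which may be technical.

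The 7 genes are linked by the let-7 microRNAs. LIN28A and LIN28B bind let-7 precursors and block their processing, so that mature let-7 stays low in early embryos. LIN28A also marks the precursors for decay through terminal uridylyl transferases. Mature let-7 in turn silences mRNAs that carry its seed match in their 3′ untranslated region (3′ UTR), among them Lin28a, Lin28b, Hmga2 and the Igf2bp genes. The IGF2BP proteins hold bound mRNAs, of which Igf2 and H19 are the best known, in cytoplasmic granules and protect or localise them, and mice without IGF2BP1 are small and have a poorly developed gut. HMGA1 and HMGA2 bind AT-rich DNA through AT hooks and open chromatin, and mice without HMGA2 are dwarfed.

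The mature let-7 sequences and 1 seed match from each gene are printed here because they are the shared feature by which the group is known. RefSeq (GRCm38.p6) gave 11 distinct mature names of the let-7 and miR-98 5′ arms, of which 10 share the seed of let-7a (bases 2 to 8, in capitals) and let-7j does not. Of the 10, 3 are shown, 5′ to 3′.
mmu-let-7a-5p: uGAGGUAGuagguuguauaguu
mmu-let-7g-5p: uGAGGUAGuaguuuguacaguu
mmu-let-7i-5p: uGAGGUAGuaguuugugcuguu

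The reverse complement of the seed is CTACCTC (7 letters), and it was searched on the sense strand in the longest annotated 3′ UTR of each gene in GENCODE vM21 (GRCm38). The first match in each member is shown with the bases around it, the match in capitals, read on the mRNA strand.
Lin28a: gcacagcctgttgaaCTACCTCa
Lin28b: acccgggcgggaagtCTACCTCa
Igf2bp1: gctgtgcgaagtaaaCTACCTCa
Igf2bp2: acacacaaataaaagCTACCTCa
Igf2bp3: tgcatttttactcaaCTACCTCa
Hmga1: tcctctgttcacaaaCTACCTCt
Hmga2: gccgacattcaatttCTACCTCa
On GRCm38 these stretches lie at chr4:134005189-134005211, chr10:45381022-45381044, chr11:95961778-95961800, chr16:22059473-22059495, chr6:49086787-49086809, chr17:27563277-27563299 and chr10:120364224-120364246, in the order printed, on the plus strand for Hmga1 and on the minus strand for the others.

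All 7 members held at least 1 match, against 8.97% of the 20945 genes with an annotated 3′ UTR (1878 genes). Lin28b, Igf2bp1 and Hmga2 held 4 matches each, Lin28a held 2, and Igf2bp2, Igf2bp3 and Hmga1 held 1. The 3′ UTRs differed in length, between 1183 bases in Hmga1 and 6337 in Igf2bp1, and a long 3′ UTR holds a given 7 letters more often. Among 3′ UTRs of 0.8 to 1.25 times the same length, the share with 1 or more matches was 14.8% for Lin28a, 24.0% for Lin28b, 34.2% for Igf2bp1, 12.0% for Igf2bp2, 13.3% for Igf2bp3, 8.10% for Hmga1 and 16.1% for Hmga2. The reverse strand letters GAGGTAG were found in 1 member, Hmga2, and in 7.65% of all genes. These counts describe the reference sequence. Mature microRNA was not analysed here.

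Levels are given as FPKM, the authors' unit, that is, fragments per kilobase of gene and per unit of library size, so levels of different genes can be compared per length. The 8 libraries held 16.7e+06 to 19.5e+06 reads assigned to genes. Markers of the gut wall were present at both ages, with summed levels of 2701 to 10511 FPKM at P14 and 4704 to 5170 FPKM at E17.5 for 8 smooth muscle genes, and 917 to 2569 FPKM at P14 and 2284 to 2539 FPKM at E17.5 for 8 fibroblast genes. The P14 libraries differed in how much epithelial RNA they held: the sum of 12 epithelial markers was 4694, 143, 723 and 264 FPKM in P14 replicates 1 to 4, against 35.7 to 57.8 FPKM at E17.5, and none of the 12 was at 0 in any library. Of the 12, 10 were tested, and 9 were called higher and 0 lower at P14. Epcam, an epithelial adhesion protein, was at 1228, 8.46, 118 and 33.5 FPKM in P14 replicates 1 to 4, against 0.683 to 1.73 FPKM at E17.5. P14 replicate 1 also had an effective library size in the authors' scaling of 0.780 times its assigned reads, against 1.02 to 1.06 times in the other 7. This raises its FPKM values above a scaling by assigned reads. In FPKM its median ratio to the mean of the other P14 libraries was 1.02 over all tested genes. The members' results and the list counts are given with and without it. The 14 cell division markers summed to 266 to 397 FPKM at P14 and 581 to 643 FPKM at E17.5, with P14 replicate 1 the lowest, and Mki67, a protein of dividing cells, was at 10.6, 19.6, 21.8 and 20.1 FPKM in P14 replicates 1 to 4, against 34.2 to 44.5 FPKM at E17.5. Markers of blood and lymphatic endothelium (7 genes) summed to 125 to 259 FPKM at P14 and 424 to 478 FPKM at E17.5, and those of macrophages (6 genes) to 114 to 181 FPKM at P14 and 261 to 304 FPKM at E17.5. Erythroid markers (6 genes) summed to 339 to 568 FPKM at P14 and 1648 to 2403 FPKM at E17.5, and all 5 that were tested were called lower at P14. Lymphocyte and plasma cell markers (7 genes) summed to 15.6 to 99.7 FPKM at P14 and 1.69 to 3.13 FPKM at E17.5, with all 3 tested called higher at P14, and of 7 tested smooth muscle markers 0 were called with all 8 libraries and 6 were called higher without P14 replicate 1. In such bulk libraries fewer cells of a type and less RNA per cell cannot be told apart, and what these cell types contribute to the results below was not tested.

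At P14 the members ranked by mean level as Hmga1, Igf2bp2, Igf2bp3, Hmga2, Igf2bp1, Lin28b and Lin28a, and at E17.5 as Igf2bp2, Hmga1, Hmga2, Igf2bp3, Igf2bp1, Lin28b and Lin28a. The highest mean was 22.2 ± 9.60 FPKM at P14 (Hmga1) and 31.5 ± 0.974 FPKM at E17.5 (Igf2bp2; SD, n = 4 each). At P14 neighbours in this order overlapped in range, except Igf2bp1 and Lin28b, and without P14 replicate 1 Hmga2 and Igf2bp1 were the only neighbours that did. At E17.5 Hmga1 and Hmga2 overlapped, and the other neighbours were apart in all 4 libraries. The place of Hmga1 depends on Hmga1b, its near-identical copy: with the levels of both summed, it was at 18.3 to 31.1 FPKM at E17.5, above Hmga2 in every library and overlapping Igf2bp2. Between the ages, Igf2bp1, Igf2bp2 and Hmga2 were called lower at P14 with all 8 libraries in the fit, and Igf2bp3 was called lower without P14 replicate 1 or on the TPM scale. Hmga1 was not called, and the LIN28 genes were under the level needed for the test.

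**Figure D1:**
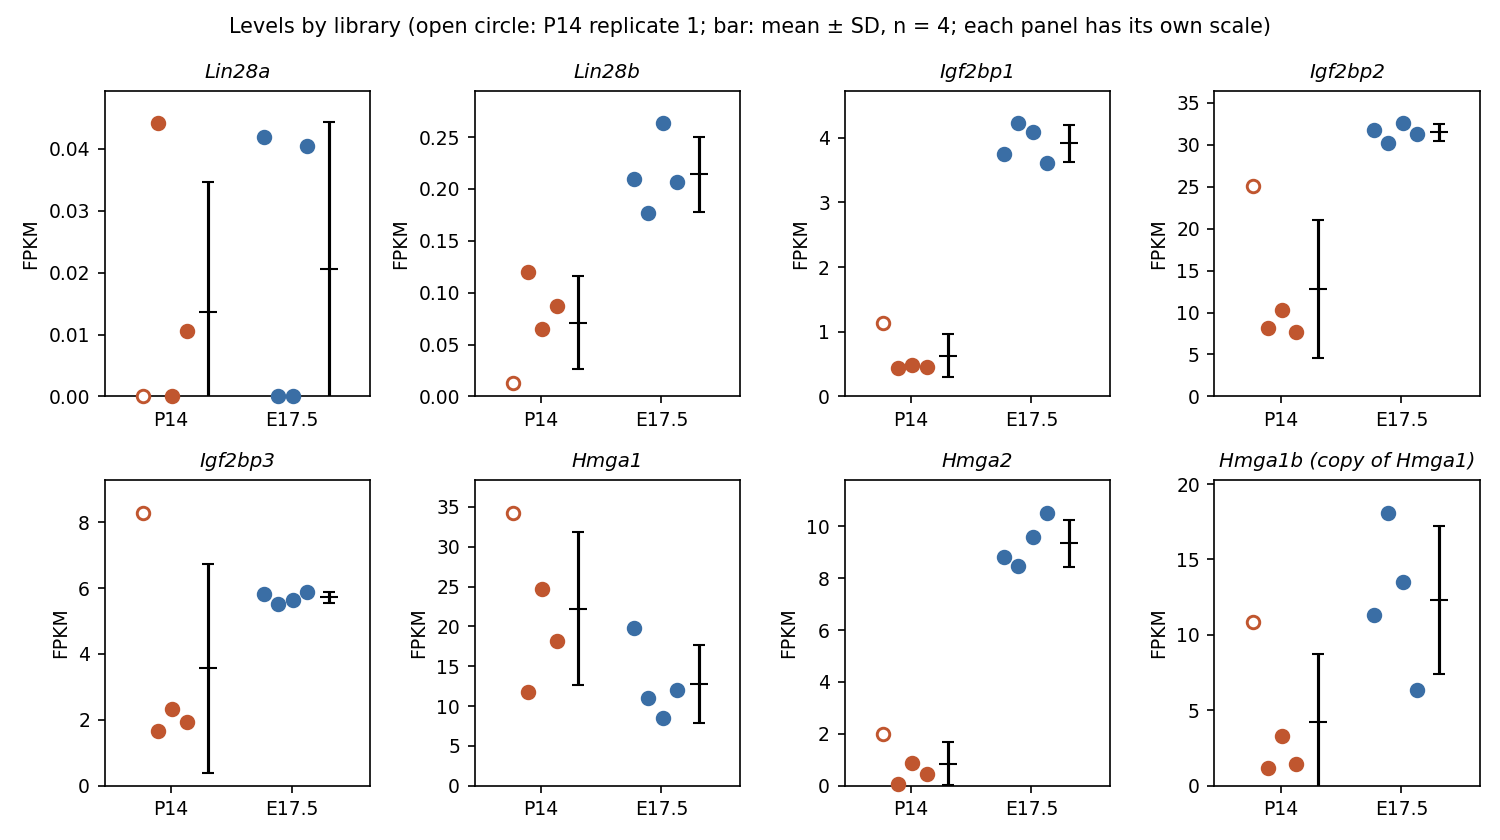
Level of each member and of Hmga1b, a near-identical copy of Hmga1, in FPKM on the y axis, by age on the x axis; each point is a library, the open circle is P14 replicate 1, and the bars give the mean ± SD of 4 libraries, cut at 0. The P14 points of Igf2bp1, Igf2bp2, Hmga2 and Lin28b lie below all E17.5 points, while in Igf2bp3 and Hmga1 the open circle lies above them.

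The test across genes used loci with an FPKM of at least 1 in no fewer than 4 libraries, 14044 in all, on the scale log2(FPKM + 1), and called a gene under an adjusted p of 0.05 (limma with Benjamini-Hochberg adjustment over all 14044). Of the 7 members 5 were tested, all but Lin28a and Lin28b. Lower levels at P14 were called for 3 of these 5, against 15.0% of all tested genes. None of the 5 was called higher at P14, against 9.72% of tested genes. In that direction 0 had an unadjusted p under 0.05, and 0 were called by limma-voom on reads. Without P14 replicate 1, 4 of the 5 were called lower and 0 higher, against 26.9% and 22.6% of tested genes. Every P14 library was under every E17.5 library in 3 of the 5 tested members (Igf2bp1, Igf2bp2 and Hmga2), against 20.4% of tested genes. Without P14 replicate 1 it held in these 3 and in Igf2bp3, against 29.7%. With and without that library it also held in Lin28b, which was not tested and so lies outside these shares. Igf2bp1 and Hmga2 reached 1 FPKM in all 4 E17.5 libraries and in 1 P14 library, so they passed the filter mainly through the age at which they were high. With no filter on low values their adjusted p was 0.00221 and 0.00377.

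Lin28a (chromosome 4, 133730641 to 133746504, minus strand, GRCm39 as are all gene coordinates from the table) was at or near 0 at both ages. It had 0, 4, 0 and 1 reads in P14 replicates 1 to 4, against 4, 0, 0 and 4 reads in E17.5 replicates 1 to 4. Counting error alone allows up to 3 reads where none was seen. The 2 ages could not be told apart at this depth (exact two-sided permutation test over 70 assignments of libraries, p = 1), and no fold change is given.

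Lin28b (chromosome 10, 45252713 to 45362410, minus strand) was low at both ages and lower at P14. Its level was 0.0125, 0.120, 0.0654 and 0.0870 FPKM in P14 replicates 1 to 4, against 0.210, 0.177, 0.263 and 0.207 FPKM in E17.5 replicates 1 to 4. All 4 P14 libraries lay below all 4 E17.5 libraries, and P14 replicate 1 was the lowest. These levels rest on 2, 25, 14 and 19 reads at P14 and 46, 35, 57 and 47 reads at E17.5. The P14 mean was 0.333 times the E17.5 mean, and 0.424 times without P14 replicate 1. The exact permutation test gave p = 0.0286 with and without that library, which is the smallest p that 4 against 4 or 3 against 4 libraries can give. In fits across all genes that kept it, it was not called: with no filter on low values the limma adjusted p was 0.0828, and with limma-voom on the reads of all loci with at least 10 reads it differed by -1.97 on the log2 scale (SE 0.608, adjusted p = 0.0648).

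The 3 IGF2BP genes were all lower at P14 in replicates 2 to 4. Igf2bp1 (chromosome 11, 95847989 to 95896770, minus strand), the family member with the most restricted embryonic expression, was at 1.14, 0.445, 0.484 and 0.461 FPKM in P14 replicates 1 to 4, against 3.74, 4.22, 4.08 and 3.61 FPKM in E17.5 replicates 1 to 4. The ages did not overlap, P14 replicates 2 to 4 were close together (0.463 ± 0.0195 FPKM, SD, n = 3), and P14 replicate 1 was 2.46 times their mean. The log2 fold change was -1.61 (SE 0.150, limma adjusted p = 0.000709), and -1.75 (SE 0.0926, adjusted p = 8.3e-06) without P14 replicate 1. On this scale the pseudocount of 1 shrinks the change of a gene at such levels: the ratio of mean FPKM was 0.162, with limma-voom on reads the log2 fold change was -2.84 (SE 0.216), and with a pseudocount of 0.1 it was -2.55. The exact permutation test gave p = 0.0286.

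Igf2bp2 (chromosome 16, 21877759 to 21982049, minus strand), which also acts in adult muscle and metabolism, was the most abundant of the 3 per length at both ages. The gene lengths behind this were 3899 bases for Igf2bp2 and 14140 bases for Igf2bp3. By reads, Igf2bp2 and Igf2bp3 held 3277 and 3219 at P14, and 9261 and 6107 at E17.5. In P14 replicate 1 Igf2bp3 held more reads, 1645 against 1369. Igf2bp2 was at 25.0, 8.20, 10.3 and 7.65 FPKM in P14 replicates 1 to 4, against 31.8, 30.2, 32.6 and 31.3 FPKM in E17.5 replicates 1 to 4. The E17.5 libraries lay within a coefficient of variation of 3.10%, and every P14 library was below them. In FPKM, P14 replicate 1 was closer to them than to the other 3 P14 libraries. On the TPM scale, which gives each library the same total, it was at 49.6 TPM and closer to the other 3. Those were at 21.2 to 29.5 TPM, against 89.5 to 97.7 TPM at E17.5. The log2 fold change was -1.39 (SE 0.326, limma adjusted p = 0.0194), and -1.75 (SE 0.0980, adjusted p = 1.0e-05) without P14 replicate 1. The call was lost without E17.5 replicate 2, 3 or 4 or P14 replicate 3, with adjusted p of 0.0505, 0.0585, 0.0542 and 0.0535.

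Igf2bp3 (chromosome 6, 49062152 to 49200225, minus strand), like Igf2bp1 a mainly fetal protein, split the P14 libraries. Its level was 8.29, 1.66, 2.34 and 1.95 FPKM in P14 replicates 1 to 4, against 5.83, 5.53, 5.65 and 5.87 FPKM in E17.5 replicates 1 to 4. P14 replicate 1 was above every E17.5 library, and the other 3 P14 libraries were below all of them. Over all 8 libraries the difference did not pass (a log2 fold change of -0.77, SE 0.370, limma adjusted p = 0.164; exact permutation p = 0.143). Without P14 replicate 1 it did (-1.18, SE 0.0970, adjusted p = 5.6e-05; exact permutation p = 0.0286), and the P14 mean was 0.346 times the E17.5 mean. Rescaled to TPM, in which each library sums to the same total, P14 replicate 1 was at 16.4 TPM, level with 16.4 to 16.9 TPM at E17.5, and the difference over all 8 libraries passed (-0.94, SE 0.287, adjusted p = 0.0446). The locus shares bases with Malsu1, a mitochondrial ribosome assembly factor on the opposite strand, at 3.17, 1.94, 2.18 and 2.33 FPKM in P14 replicates 1 to 4 and 1.59 to 1.84 FPKM at E17.5. The sources used here do not say whether reads were counted by strand.

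The make-up of the family differed between the ages. Igf2bp1 took 3.97% ± 0.584 of the summed IGF2BP FPKM at P14 and 9.53% ± 0.768 at E17.5 (SD, n = 4 each). Its highest share at P14 was 4.59% and its lowest at E17.5 was 8.86%, so the ages did not overlap. Igf2bp3 took 19.3% ± 3.43 at P14 and 13.9% ± 0.445 at E17.5, with 16.1% the lowest at P14 and 14.4% the highest at E17.5. Igf2bp2 took 76.7% ± 3.09 at P14 and 76.5% ± 0.631 at E17.5, which differed by less than the spread between libraries. These shares include P14 replicate 1, in which Igf2bp1 took 3.31% and Igf2bp3 24.1%. They also rest on the gene lengths used for FPKM.

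**Figure D2:**
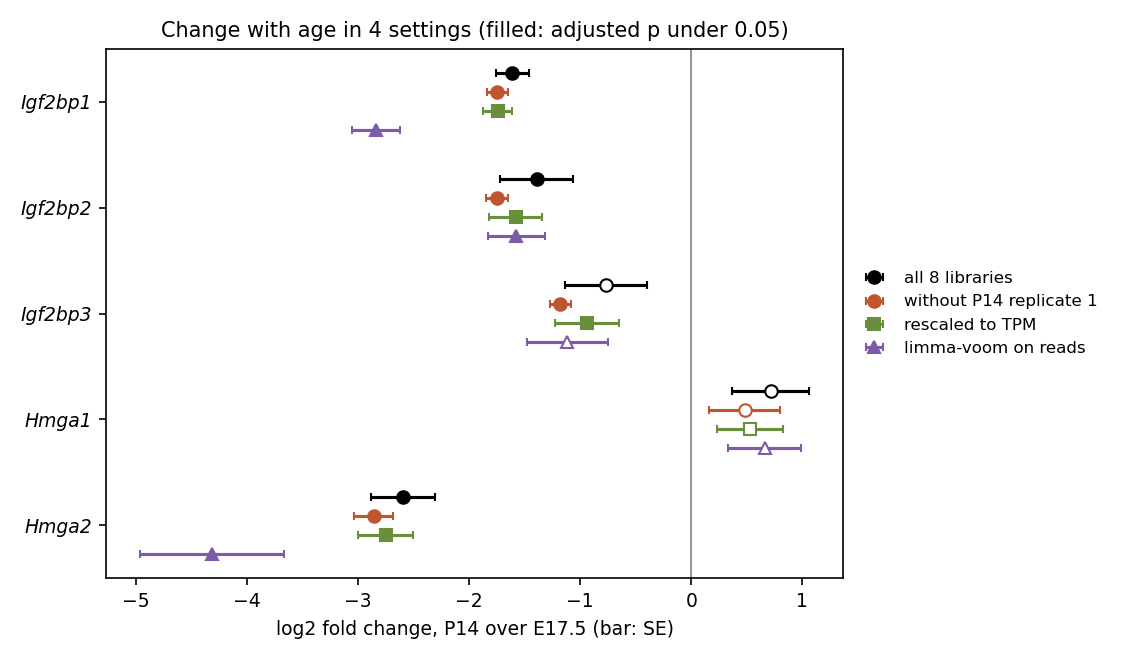
Log2 fold change of P14 over E17.5 on the x axis for the 5 members that were tested, in 4 settings given by colour and shape; bars are standard errors, and filled symbols passed an adjusted p of 0.05. Igf2bp1, Igf2bp2 and Hmga2 were lower at P14 in each of the 4 settings, Igf2bp3 passed without P14 replicate 1 and on the TPM scale, and Hmga1 passed in none.

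Hmga2 (chromosome 10, 120197173 to 120312374, minus strand), the HMGA protein of proliferating embryonic mesenchyme, had the lowest ratio of P14 to E17.5 among the 7. It was at 1.98, 0.0718, 0.867 and 0.452 FPKM in P14 replicates 1 to 4, against 8.83, 8.49, 9.57 and 10.5 FPKM in E17.5 replicates 1 to 4. All P14 libraries lay far below all E17.5 libraries, and the P14 libraries differed among themselves by far more than the E17.5 ones, with coefficients of variation of 97.9% at P14 and 9.67% at E17.5. The P14 values rest on 106, 5, 62 and 33 reads, against 647, 563, 693 and 801 reads at E17.5. The mean ratio was 0.0900, and 0.0495 without P14 replicate 1. The log2 fold change was -2.59 (SE 0.288, limma adjusted p = 0.00127), and -2.86 (SE 0.176, adjusted p = 1.5e-05) without P14 replicate 1. Limma-voom on reads, which adds no pseudocount of 1, gave -4.32 (SE 0.646), and a pseudocount of 0.1 gave -3.84. The 3 loci listed on the opposite strand inside Hmga2 were at 0.247 FPKM or less in every library.

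Hmga1 (chromosome 17, 27775548 to 27782646, plus strand), which is more widely expressed than Hmga2, was not called. Its level was 34.3, 11.8, 24.6 and 18.1 FPKM in P14 replicates 1 to 4, against 19.8, 11.0, 8.45 and 12.0 FPKM in E17.5 replicates 1 to 4. The ages overlapped, and in FPKM P14 replicate 1 was again the highest of its group. On the TPM scale P14 replicate 3 was, at 70.4 TPM against 67.9 TPM in P14 replicate 1. The log2 fold change was 0.71 (SE 0.346, limma adjusted p = 0.165; exact permutation p = 0.171), and 0.48 (SE 0.322, adjusted p = 0.254) without P14 replicate 1. Hmga2 made up 2.97% ± 2.02 of the summed FPKM of Hmga1 and Hmga2 at P14 and 43.6% ± 9.37 at E17.5 (SD, n = 4 each). With the copy Hmga1b added to the sum, its share was 2.50% ± 1.53 at P14 and 27.9% ± 6.90 at E17.5, and the ages did not overlap either way.

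The value of Hmga1 is uncertain because the table also lists Hmga1b (chromosome 11, 120653620 to 120655218, plus strand), a near-identical copy with its own reads, added here after its values were seen. In the GENCODE vM21 transcripts 78.8% of the windows of 100 bases of Hmga1b also occur in Hmga1, as do 69.5% of its windows of 150 bases, and none of those of Hmga2 do. In the other direction, 40.1% of the windows of 100 bases of Hmga1 and 30.1% of those of 150 bases also occur in Hmga1b. Hmga1b was at 10.9, 1.17, 3.30 and 1.44 FPKM in P14 replicates 1 to 4, against 11.3, 18.1, 13.5 and 6.34 FPKM in E17.5 replicates 1 to 4. It took 10.6% ± 6.37 of the reads of the pair at P14 and 43.0% ± 14.9 at E17.5 (SD, n = 4 each), and the highest share at P14, 19.9%, was below the lowest at E17.5, 29.3%. With both genes summed, no difference was called: the log2 fold change was -0.039 (SE 0.357, limma adjusted p = 0.946), and -0.34 (SE 0.279, adjusted p = 0.351) without P14 replicate 1. Over all 8 libraries the mean of the sum was 26.4 FPKM at P14 and 25.1 FPKM at E17.5. The sources used here do not say how reads that match both were divided, so neither gene's own difference between the ages can be read from these values.

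**Figure D3:**
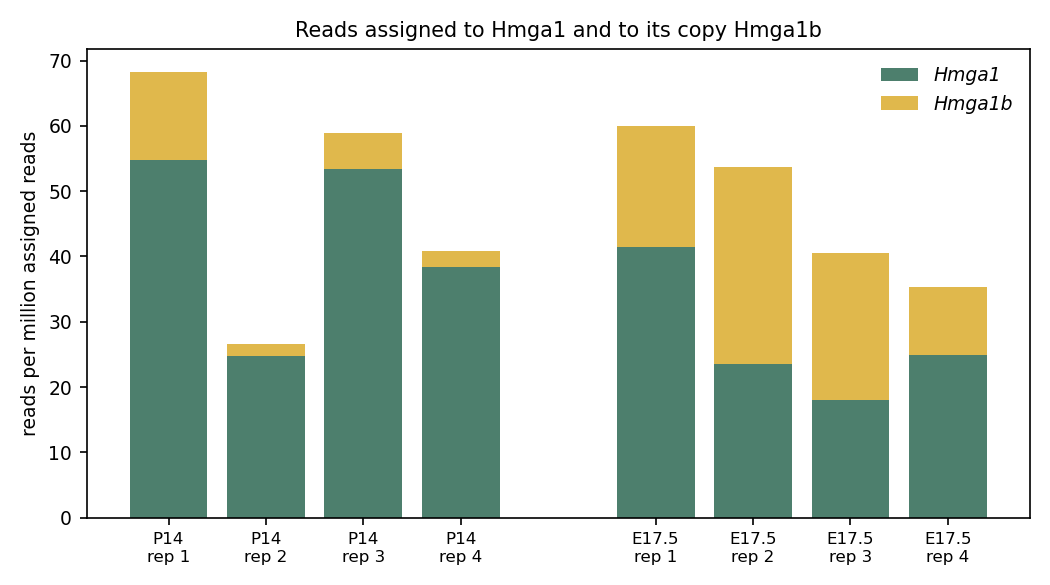
Reads assigned to Hmga1 (green) and to its copy Hmga1b (yellow), as reads per 1e+06 assigned reads on the y axis, stacked, in each of the 8 libraries on the x axis. The stacks reach 26.6 to 68.3 at P14 and 35.3 to 60.0 at E17.5, while the share of the stack given to Hmga1b is smaller at P14, at most 19.9% against at least 29.3% at E17.5.

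The 4 P14 libraries did not stand alike in these genes. Set in order of their epithelial sum (replicates 2, 4, 3 and 1), the FPKM levels of Igf2bp1, Igf2bp3, Hmga1 and Hmga2 came in that same order. On the TPM scale Hmga1 did not, at 32.3, 50.2, 70.4 and 67.9 TPM in replicates 2, 4, 3 and 1. Igf2bp2 came in that order but for replicates 2 and 4, which were at 26.1% and 24.3% of the E17.5 mean. Lin28b came in the reverse order, at 56.1%, 40.6%, 30.6% and 5.83% of its E17.5 mean. P14 replicate 1 exceeded the mean of the other 3 P14 libraries 4.27-fold in Hmga2, 4.19-fold in Igf2bp3, 2.87-fold in Igf2bp2, 2.46-fold in Igf2bp1 and 1.88-fold in Hmga1, against 23.0-fold in Epcam, 0.518-fold in Mki67 and a median of 1.02-fold over all tested genes. A ratio at least as high was seen in 5.11%, 5.27%, 8.74%, 11.2% and 17.4% of tested genes for Hmga2, Igf2bp3, Igf2bp2, Igf2bp1 and Hmga1. With 4 libraries this order is a description, and the part that epithelial RNA plays in these levels was not tested.

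**Figure D4:**
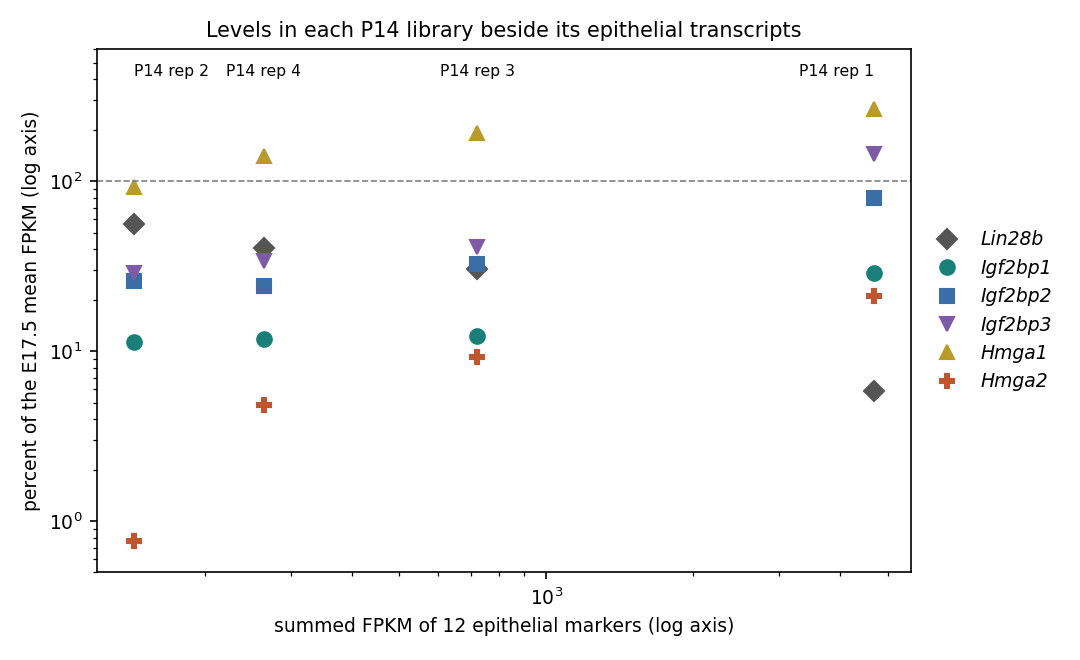
Level of 6 members in each P14 library as a percentage of their E17.5 mean FPKM (y axis, log scale) against the summed FPKM of 12 epithelial markers in that library (x axis, log scale); the dashed line is 100%. From replicate 2 on the left to replicate 1 on the right Hmga2 runs between 0.768% and 21.2% and Igf2bp3 between 29.0% and 145%, and Lin28b runs the other way.

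Among the 18 genes that process or degrade let-7, 17 were tested, and 4 were called lower and 0 higher at P14 (by limma; 0 were higher with an unadjusted p under 0.05), with a median log2 fold change of -0.11 against 0.0022 over all tested genes. Drosha, which cuts the primary transcript in the nucleus, was at 11.1 to 12.6 FPKM at P14 and 16.3 to 18.5 FPKM at E17.5 (a log2 fold change of -0.55, SE 0.0894, adjusted p = 0.00486). Xpo5, which exports the precursor, averaged 9.65 ± 0.308 FPKM at P14 and 14.7 ± 0.406 FPKM at E17.5 (-0.56, SE 0.0803, adjusted p = 0.00312). Tut4, the uridylyl transferase that LIN28A recruits, averaged 4.82 ± 0.342 FPKM at P14 and 7.09 ± 0.626 FPKM at E17.5 (-0.47, SE 0.102, adjusted p = 0.0141), and the fourth was Prkra, a partner of DICER1, named after its values were seen (-0.43, adjusted p = 0.0336). Drosha and Xpo5 are steps that make let-7 and other microRNAs. Tut4 acts against let-7 where LIN28A recruits it, and Lin28a was hardly detected here, so the side on which Tut4 stands was not tested. Ddx5, the most abundant of the list, was at 266 ± 8.57 FPKM at P14 and 261 ± 4.45 FPKM at E17.5 and was not called. Without P14 replicate 1, 7 of the 17 were called lower and 0 higher. Without E17.5 replicate 3, 2 were called lower, where calls lower among all 14044 tested genes fell from 2108 to 1118.

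The let-7 genes themselves were hardly measured. Of the 12 let-7 and miR-98 hairpin loci in the table, 9 were at 0 in all 8 libraries, and the highest level of the other three was 3.07 FPKM. Of their host genes, Huwe1, which holds Mirlet7f-2 and Mir98, averaged 16.8 ± 0.575 FPKM at P14 and 22.1 ± 2.13 FPKM at E17.5 (a log2 fold change of -0.37, SE 0.0978, limma adjusted p = 0.0282), a call that was lost with no filter and when any 1 of E17.5 replicates 2, 3 and 4 or P14 replicates 2, 3 and 4 was left out. Wdr82, which neighbours Mirlet7g, was at 25.7 to 36.3 FPKM at P14 and 40.4 to 43.5 FPKM at E17.5 (-0.38, SE 0.127, adjusted p = 0.0605), and was called lower without P14 replicate 1 (-0.28, SE 0.0825, adjusted p = 0.0206). Lncppara, the let-7b host, was under the level needed for the test, at 2.12 ± 1.18 FPKM at P14 and 0.520 ± 0.303 FPKM at E17.5 (SD, n = 4 each), with 0.622 FPKM in P14 replicate 1. The 4 tested loci of this list of 17 gave 1 call lower and 0 higher at P14, and 2 lower, Huwe1 and Wdr82, and 0 higher without P14 replicate 1; limma-voom without that library gave 2 lower and 1 higher, Mir100hg, named after its values were seen.

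Of 28 genes reported elsewhere as let-7 targets, other than the members, 24 were tested, and 8 were called lower and 0 higher at P14, with a median log2 fold change of -0.24. Several of them drive cell division, whose 14 markers gave 11 calls lower and 0 higher, and what that contributes was not tested. Ccnd1, a cyclin of the start of the cell cycle, averaged 18.6 ± 2.71 FPKM at P14 and 49.9 ± 1.76 FPKM at E17.5 (-1.39, SE 0.122, adjusted p = 0.000651). Cdk6, its kinase partner, averaged 4.02 ± 0.346 FPKM at P14 and 8.22 ± 0.455 FPKM at E17.5 (-0.88, SE 0.0975, adjusted p = 0.00123). Thbs1, a matrix protein that restrains vessel growth, averaged 29.6 ± 6.41 FPKM at P14 and 51.1 ± 6.44 FPKM at E17.5 (-0.78, SE 0.162, adjusted p = 0.0124). Without P14 replicate 1 the list gave 14 calls lower and 2 higher, the 2 higher being Arid3b and Cdc34, named after their values were seen. Without P14 replicate 2 it gave 2 calls higher, against 1175 of all 14044 tested genes.

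Of 10 RNAs reported to be bound by IGF2BP proteins, 3 were called lower and 1 higher at P14, with a median of -0.21. H19, an imprinted noncoding RNA that is also the precursor of miR-675, was at 138 ± 17.8 FPKM at P14 and 1097 ± 57.4 FPKM at E17.5 (a log2 fold change of -2.99, SE 0.114, adjusted p = 5.1e-05). Igf2, the fetal growth factor after which the family is named, was at 51.2 ± 13.3 FPKM at P14 and 237 ± 9.98 FPKM at E17.5 (-2.22, SE 0.166, adjusted p = 0.000402). Actb, whose mRNA IGF2BP1 localises in neurons and fibroblasts, was at 1445 ± 136 FPKM at P14 and 1226 ± 80.6 FPKM at E17.5 and was not called, and Mapk4, named after its values were seen, was the 1 called higher (0.69, adjusted p = 0.0137), a call lost on the TPM scale and with limma-voom. Without P14 replicate 1, 5 were called lower and 2 higher, Mapk4 and Lamb2, a laminin chain named after its values were seen.

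All 9 proteins listed as partners of IGF2BP granules were tested, and 6 were called lower and 0 higher at P14, with a median of -0.45. Pabpc1, which binds poly(A) tails, was at 192 ± 32.7 FPKM at P14 and 343 ± 22.9 FPKM at E17.5 (a log2 fold change of -0.85, SE 0.136, adjusted p = 0.0046). Syncrip, an RNA-binding protein found with IGF2BP1, was at 23.8 ± 1.86 FPKM at P14 and 37.1 ± 2.55 FPKM at E17.5 (-0.62, SE 0.101, adjusted p = 0.0048). Matr3, a nuclear matrix RNA-binding protein, was at 58.4 ± 6.29 FPKM at P14 and 83.3 ± 11.7 FPKM at E17.5 (-0.50, SE 0.133, adjusted p = 0.0290). Without E17.5 replicate 3, 3 of the 9 were called lower, where calls lower among all 14044 tested genes fell from 2108 to 1118. Without P14 replicate 1, 8 of the 9 were called lower and Ybx1, a cold shock domain protein named after its values were seen, was called higher.

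Of 10 other genes often called oncofetal, 7 were tested, and 5 were called lower and 0 higher at P14, with a median of -1.36. Besides H19 and Igf2, which are on 2 lists, Dlk1, an imprinted fetal surface protein, averaged 19.1 FPKM at P14 and 81.9 FPKM at E17.5 (a log2 fold change of -2.26, SE 0.476, adjusted p = 0.0132). In P14 replicate 1 Dlk1 was at 4.75 FPKM, the lowest of the 8, unlike the IGF2BP and HMGA genes. Peg10 and Gpc3, named after their values were seen, were lower by 1.36 and 0.83 on the log2 scale (adjusted p = 0.010 and 0.0046). Afp, a fetal serum protein, was at 261 FPKM in P14 replicate 1 and 0.181 ± 0.177 FPKM at E17.5 and was not called over all 8 libraries (adjusted p = 0.203), but was called higher at P14 without that library (adjusted p = 0.0027), where the list gave 5 calls lower and 1 higher.

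Of 7 HMGB and HMGN genes, which encode other high mobility group chromatin proteins, 3 were called lower and 0 higher at P14, with a median of -0.35. Hmgb1 was at 38.8 to 52.0 FPKM at P14 and 71.9 to 86.8 FPKM at E17.5 (a log2 fold change of -0.72, SE 0.124, adjusted p = 0.0059). Hmgb2, which dividing cells express most, was at 44.9 ± 10.4 FPKM at P14 and 74.4 ± 2.42 FPKM at E17.5 (-0.75, SE 0.180, adjusted p = 0.0211). Hmgn2 was at 38.5 ± 35.7 FPKM at P14 and 144 ± 27.5 FPKM at E17.5 (-2.54, SE 0.770, adjusted p = 0.0457), and its many processed copies make this value uncertain. Hmgn1, the most abundant, was at 208 ± 48.8 FPKM at P14 and 229 ± 21.0 FPKM at E17.5 and was not called. Leaving out any 1 of the E17.5 libraries left 1 call lower, where calls lower among all tested genes fell from 2108 to between 1118 and 1477. Leaving out P14 replicate 1 gave 4 calls lower and 1 higher, which was Hmgn3 (0.29, adjusted p = 0.0394), and Hmgn5 joined the lower ones (-0.54, adjusted p = 0.00104), both named after their values were seen. These 7 lists were chosen with results of these data known, and their counts are read beside the 15.0% lower and 9.72% higher of all tested genes, and those without P14 replicate 1 beside 26.9% lower and 22.6% higher.

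**Figure D5:**
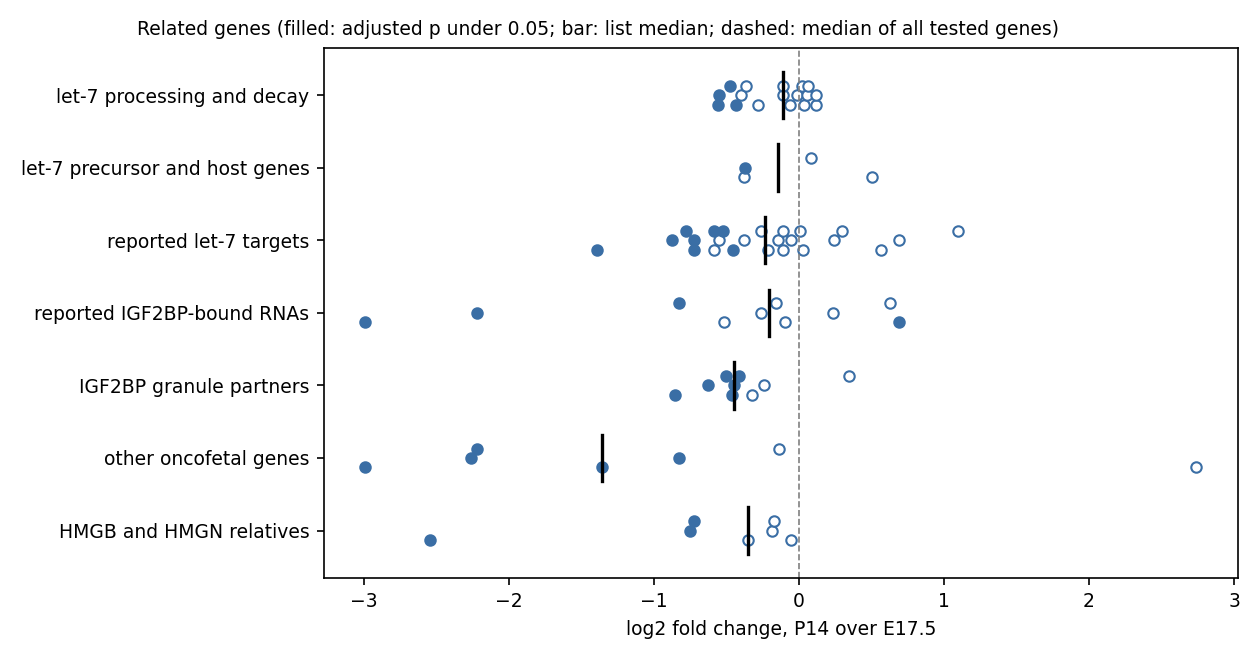
Log2 fold change of P14 over E17.5 (x axis) for each tested gene of the 7 lists (rows); filled points passed an adjusted p of 0.05, black bars are the list medians and the dashed line is the median of all tested genes. The filled points lie left of the line except Mapk4 among the IGF2BP-bound RNAs, and the other oncofetal genes have the lowest median, -1.36.

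The genes most like each tested member were found by the root mean square distance between levels over the 8 libraries, on the log2(FPKM + 1) scale after centring each gene, among 12692 protein-coding genes. Nearest to Igf2bp1 were Vegfa (distance 0.145), Has2 and Ahr, and Vegfa was at 14.6 FPKM at P14 and 40.2 FPKM at E17.5. Nearest to Igf2bp2 were Sulf2 (0.223), Agt and Itga2, of which Itga2 averaged 3.41 FPKM at P14 and 13.6 FPKM at E17.5. Nearest to Igf2bp3 were Nek6 (0.122), Csf1r and Gfpt1, and Nek6 was at 23.8 FPKM in P14 replicate 1 while it averaged 13.9 FPKM at E17.5. Nearest to Hmga1 were Pnpla2 (0.202), Relb and Mafk. Nearest to Hmga2 were Glp2r (0.280), Lmo3 and Igf2, and Glp2r averaged 2.97 FPKM at P14 and 18.2 FPKM at E17.5. The distance takes in the age difference and the place of P14 replicate 1 alike.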

How the data were processed

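The 4 P14 and 4 E17.5 libraries were compared, grouped by their titles. Per the labels' protocols, RNA came from TRIzol and libraries from an NEBNext Ultra kit. The authors deposited 1 table of FPKM per gene, on GRCm39, per the submitters' processing notes, which also name CASAVA, fastp, HISAT2, featureCounts and DESeq2 1.20.0 without saying what each did. Reads were recovered from the deposited FPKM: times gene length, 100% of values were whole multiples of what 1 read is worth in that library (tolerance 1e-06). Loci with no name (302) took 0.183% to 0.246% of the reads; 101 of them entered the test.

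The members and lists were chosen with earlier results of these data known. Genes with 1 FPKM or more in at least 4 of 8 libraries were tested as log2(FPKM + 1) in limma 3.58.1 (R 4.3.3, statmod 1.5.0; trend and robust moderation), two-sided, with Benjamini-Hochberg adjustment. The filter, pseudocount, scaling, moderation, replicate block and each library were varied, and limma-voom was run on the recovered reads. Single values were tested by exact permutation of |mean difference| over 70 assignments (35 without P14 replicate 1). Named genes were the members, up to 3 called genes with the largest change and the most abundant gene of each list, and the 3 nearest genes of each tested member. A called gene of the IGF2BP-bound list is counted there and not reported here by name. The analysis code was tested on simulated data. After each gene was centred on its mean within each age, correlations of same-numbered libraries across the ages lay between -0.064 and 0.0095. They gave no sign that the numbers pair libraries, though so few pairs cannot exclude it. Library size limits the counts, and the limit of 3 reads for a gene at 0 covers counting error only. Mature let-7 was taken from RefSeq, and Lncppara was matched to the let-7b host gene by a synonym.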

Additional observations from a re-analysis of the deposited data

Results flagged for a closer look

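In 3 members 1 library of P14 stood far from the others of its group, by the gap to its neighbour set against the range of the 4; chance alone marks about 1 group in 20. P14 replicate 1 was at 1.14 FPKM in Igf2bp1, on both the FPKM and the log2(FPKM + 1) scale with a gap of 0.944 of the range on the first, against 0.445 to 0.484 FPKM in the other 3. It was at 25.03 FPKM in Igf2bp2, against 7.65 to 10.3 FPKM in the other 3. It was at 8.295 FPKM in Igf2bp3, against 1.66 to 2.34 FPKM in the other 3. Igf2bp2 and Igf2bp3 were marked on the FPKM scale only, and not on the log2(FPKM + 1) scale. The same library had the highest epithelial sum, 4694 FPKM, and the lowest cell division sum, 266 FPKM, and the part of either in these levels was not tested.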

How the results depend on the processing

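Igf2bp1 and Hmga2 were called lower at P14 under all 20 alternatives. Igf2bp2 kept its direction and lost its call without 4 single libraries; its log2 fold change over the single-library omissions lay between -1.75 and -1.22. Igf2bp3 was called on the TPM scale (-0.94), without P14 replicate 1 (-1.18, against -0.58 as the smallest size over the single-library omissions), and without it on the TPM scale (-1.25) or with limma-voom (-1.53). The sum of Hmga1 and Hmga1b was at -0.039 with all 8 libraries, -0.34 without P14 replicate 1 and -0.016 with limma-voom, and was called in none of these. Hmga1 alone was at 0.48 without P14 replicate 1 and 0.66 with limma-voom, and was not called in either. The exact p of Lin28a lay between 0.4286 and 1 over the single-library omissions, and was 1 without E17.5 replicate 1, where the sign of the difference turned. Summing Hmga1b, and the TPM and voom fits without P14 replicate 1, were chosen after seeing the data.

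Over all genes, 1365 were called higher and 2108 lower at P14. Calls higher were 877 on the TPM scale, 894 with limma-voom, and 2759 and 3227 with these without P14 replicate 1; calls lower without it were 4387 and 3795. Leaving out 1 library gave 617 to 3176 calls higher and 1118 to 3782 lower. TPM moved the median of all genes by -0.16 and voom by -0.10 on the log2 scale. A replicate block by number, for which no sign of pairing was seen, gave 695 higher and 1049 lower and changed no member's call. The depth limits Lin28a and Lin28b, which had at most 57 reads in a library.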
